A study of Mus musculus with 9 samples.

Results

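The genes described here are 45 enzymes, transporters and regulators that carry sugar through glycolysis, lactate and pyruvate into the citric acid cycle. They were taken by name from a list that runs from sugar uptake to the malate-aspartate enzymes, and all 45 were found among 54532 gene identifiers. All 45 also passed the filter on low counts, which left 15224 genes for testing. RNA came from wild-type mouse submandibular gland, a salivary gland, collected 30, 60 or 90 days after 10 Gy of radiation, as 4 tissue sections of 50 µm, and each day had 3 libraries. All 3 groups were irradiated, and non-irradiated glands were not analysed here, so no value below is a difference from an unexposed gland. Days after irradiation and the age of the animals cannot be told apart, and the labels used here give no strain, age or separate animal for each library. P-values therefore measure only the spread between these libraries, which may be technical.

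Glycolysis splits glucose into pyruvate in the cytosol. Pyruvate is then either reduced to lactate or carried into mitochondria, where the pyruvate dehydrogenase complex makes acetyl-CoA from it and pyruvate carboxylase makes oxaloacetate, which refills the citric acid cycle. Many steps have isozymes, encoded by different genes, that differ in regulation and in the tissues that use them. Salivary acini spend ATP on ion transport and protein secretion, and duct cells are rich in mitochondria.

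Library totals were 16541396 to 17179500 counts at 30 days and 20410818 to 26065856 at 60 and 90 days, so all 30-day libraries were the shallower ones. Mucl2, a secreted mucin-like product, took 31.4% to 42.8% of each library, and the 45 genes together took 0.290% to 0.402%. Levels are given as CPM, counts scaled to a common library size, after trimmed-mean (TMM) scaling, which lowers the weight of such dominant genes. On that scale the 45 genes summed to 3519, 3643 and 3603 CPM at 30 days, to 3571, 3563 and 3640 at 60 days and to 3253, 3292 and 3458 at 90 days. The 90-day sums lay below all others on this scale. As shares of all counts the 90-day libraries were at 0.370%, 0.390% and 0.338% against 0.290%, 0.357% and 0.368% at 30 days, and so were not lower. Markers of the gland were present, and 9 of 10 acinar markers passed the filter. Acinar markers summed to at least 310214 CPM in every library, but Mucl2 is 1 of them and makes up most of the sum. Its mean was 525097 CPM at 30 days, 454777 at 60 and 375011 at 90, and the 30-day and 90-day libraries overlapped. Markers of granular convoluted ducts differed by day, with 8 of 10 higher at both 60 and 90 days than at 30 days (edgeR, adjusted p under 0.05). Of all genes, 1.14% were called higher at 60 days and 1.81% at 90 days. Skeletal muscle markers, which share glycolytic genes with the gland, summed to 2.26 to 3.62 CPM, and Myh4, Tnnc2 and Pvalb were at 0 counts. In bulk RNA, fewer cells of one type and less RNA per cell cannot be told apart.

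Of the 45 genes, Pcx and Ldhb fell between 30 and 90 days, and no other gene of the list passed the test in any comparison. The promoters of these 2 genes are shown because they are the only genes called. The bases are the 250 upstream of each RefSeq start site (GRCm38.p6), on the gene's strand, from 5′ to 3′. Capitals mark ACGTG, a form of the core of the hypoxia response element and part of the E box CACGTG, searched on both strands. Other forms of that core were not searched.

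Pcx promoter 1, chr19:4510222-4510471 (+): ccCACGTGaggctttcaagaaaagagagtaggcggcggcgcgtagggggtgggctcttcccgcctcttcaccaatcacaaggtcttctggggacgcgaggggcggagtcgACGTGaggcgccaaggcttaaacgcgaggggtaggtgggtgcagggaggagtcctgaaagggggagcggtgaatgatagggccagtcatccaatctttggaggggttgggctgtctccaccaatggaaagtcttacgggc
Pcx promoter 2, chr19:4594069-4594318 (+): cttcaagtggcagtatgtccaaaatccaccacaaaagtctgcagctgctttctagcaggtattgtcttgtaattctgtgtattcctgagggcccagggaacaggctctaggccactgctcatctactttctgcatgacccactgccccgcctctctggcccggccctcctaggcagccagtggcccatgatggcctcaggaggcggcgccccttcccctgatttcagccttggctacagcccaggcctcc
Ldhb promoter, chr6:142507958-142508207 (-): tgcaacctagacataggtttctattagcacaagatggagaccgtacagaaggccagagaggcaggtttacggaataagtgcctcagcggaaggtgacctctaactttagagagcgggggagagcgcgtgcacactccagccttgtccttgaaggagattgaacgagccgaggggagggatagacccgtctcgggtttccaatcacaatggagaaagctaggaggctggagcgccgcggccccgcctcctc

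The first Pcx promoter held a CACGTG, read as ACGTG on both strands at -248 and -247, and another ACGTG at -140, counted in bases before the start site. The second Pcx promoter and the Ldhb promoter held no ACGTG in this window, which says nothing about other forms of the core. ACGTG was present in 16.6% and CACGTG in 6.02% of 32851 promoters of the same length. For the whole list, 44 of 45 genes had an entry and 23 of their 64 promoters (35.9%) held ACGTG. A match is a description of letters and not a binding site.

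Levels between genes were compared per kilobase of each gene's principal transcript, as the mean over all 9 libraries. Aldoa, the muscle-type aldolase that splits fructose bisphosphate, was the most abundant with 221 CPM per kb. Eno1 (enolase, 124 CPM per kb) and Tpi1 (triose phosphate isomerase, 118 CPM per kb) followed, then Mdh1, the cytosolic malate dehydrogenase, with 97.8 CPM per kb. Pkm (pyruvate kinase) was at 76.1 CPM per kb and Mdh2, the mitochondrial malate dehydrogenase, at 65.3. The first 3 ranks were thus held by glycolytic enzymes of the middle and lower pathway. The 11 genes from citrate synthase to fumarase, counted here as the citric acid cycle with malate dehydrogenase kept apart, lay between 54.1 (Ogdh) and 14.5 CPM per kb (Suclg2). The lowest were the lactate transporters Slc16a3 (0.36 CPM per kb) and Slc16a1 (0.20 CPM per kb).

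**Figure D1:**
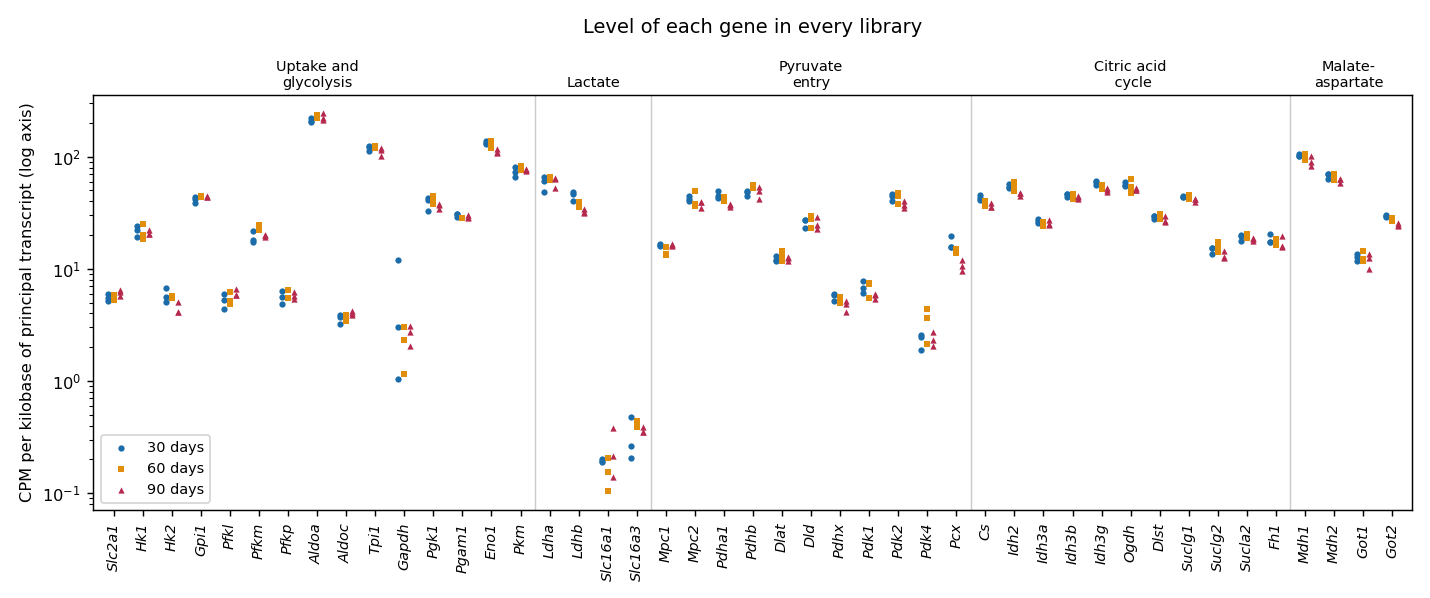
Level of each of the 45 genes in CPM per kilobase of principal transcript (log axis), grouped by step, with 1 point per library and colour for the day. Aldoa is highest at 221 CPM per kb on average, the lactate transporters Slc16a1 and Slc16a3 are lowest, and Gapdh is spread most widely between libraries.

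Gapdh, the enzyme that oxidises glyceraldehyde phosphate, stood apart with a level of only 3.37 CPM per kb. It had 879 counts over the 9 libraries. Its normalised levels were 1.49, 16.9 and 4.26 CPM at 30 days, 1.64, 3.30 and 4.30 at 60 days and 2.93, 3.85 and 4.42 at 90 days. Only 30-day sample 2 was high. Of its transcript's 50-base stretches, 82.5% also occur in transcripts of other genes, 218 in number, and one such gene, Gm7336, had 1418 counts. How reads that map to several places were counted is not given in the sources used here, so the counts of Gapdh are uncertain. Its log2 fold changes of -1.31 (SE 0.82) at 60 days and -1.04 (SE 0.81) at 90 days against 30 days became 0.08 and 0.35 without 30-day sample 2. Another 9 genes shared over 20% of their 50-base stretches with other genes, from Eno1 (72.2%) and Pgk1 (68.0%) to Suclg2 (21.8%). Mpc1 was among them with 26.4%, and its copy Mpc1-ps had 4609 counts against 2916 for Mpc1. Ldhb shared 27.01% with Gm5514, which had 7 counts, and Pcx shared none.

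Pcx encodes pyruvate carboxylase, which makes oxaloacetate from pyruvate (chr19:4510472-4621752, + strand, mm10). Its levels were 79.5, 64.1 and 63.0 CPM at 30 days, 60.6, 58.2 and 56.2 at 60 days and 48.9, 43.2 and 39.1 at 90 days. The 3 days did not overlap, with the 30-day libraries highest and the 90-day libraries lowest. Between 30 and 90 days it fell by 0.65 on the log2 scale (SE 0.11), with an adjusted p of 0.0027 (edgeR quasi-likelihood test, Benjamini-Hochberg over 15224 genes). The changes from 30 to 60 days (-0.24, SE 0.11, adjusted p 0.392) and from 60 to 90 days (-0.41, SE 0.11, adjusted p 0.159) did not pass. The 90-day call held without each library in turn and was lost when libraries were scaled by their totals alone (-0.41, adjusted p 0.161). The test for any difference among the 3 days gave an adjusted p of 0.0072, and 0.0576 without 90-day sample 3.

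Ldhb encodes the H subunit of lactate dehydrogenase, which is the main form in heart and interconverts lactate and pyruvate (chr6:142490249-142507957, - strand). Its levels were 52.8, 61.0 and 62.6 CPM at 30 days, 51.3, 46.0 and 48.8 at 60 days and 44.6, 42.0 and 41.4 at 90 days. Here too the days did not overlap, and the order was the same. Between 30 and 90 days it fell by 0.46 on the log2 scale (SE 0.10, edgeR adjusted p 0.0138). At 60 days it was -0.27 (SE 0.10, edgeR adjusted p 0.244), and from 60 to 90 days -0.19 (SE 0.10, edgeR adjusted p 0.514). This call was less stable than that of Pcx, since it was lost in 5 of 18 alternatives. Without 30-day sample 2, 90-day sample 2 or 90-day sample 3 the adjusted p (edgeR) was 0.0643, 0.0687 and 0.0684, and with scaling by library totals it was 0.415. The test for any difference gave an edgeR adjusted p of 0.0341, which rose to between 0.0713 and 0.143 without 30-day sample 2 or 3, 60-day sample 2 or 90-day sample 2 or 3.

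A measure that needs no scaling between libraries is the log2 level of a gene relative to the other genes of the list in the same library. By that measure, chosen after the values were seen and given without a test, Pcx differed by -0.57 and Ldhb by -0.37 between 90 and 30 days. Genes not called differed by amounts like that of Ldhb, among them Slc16a3 (0.38), Pfkl (0.34), Slc16a1 (0.30) and Hk2 (-0.29). Ldha, the M subunit gene of the same enzyme, was at 85.5, 115 and 108 CPM at 30 days, 116, 110 and 114 at 60 days and 92.3, 114 and 112 at 90 days. Its days overlapped, and 90 against 30 days gave a log2 difference of 0.05 (SE 0.12, edgeR adjusted p 0.902).

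**Figure D2:**
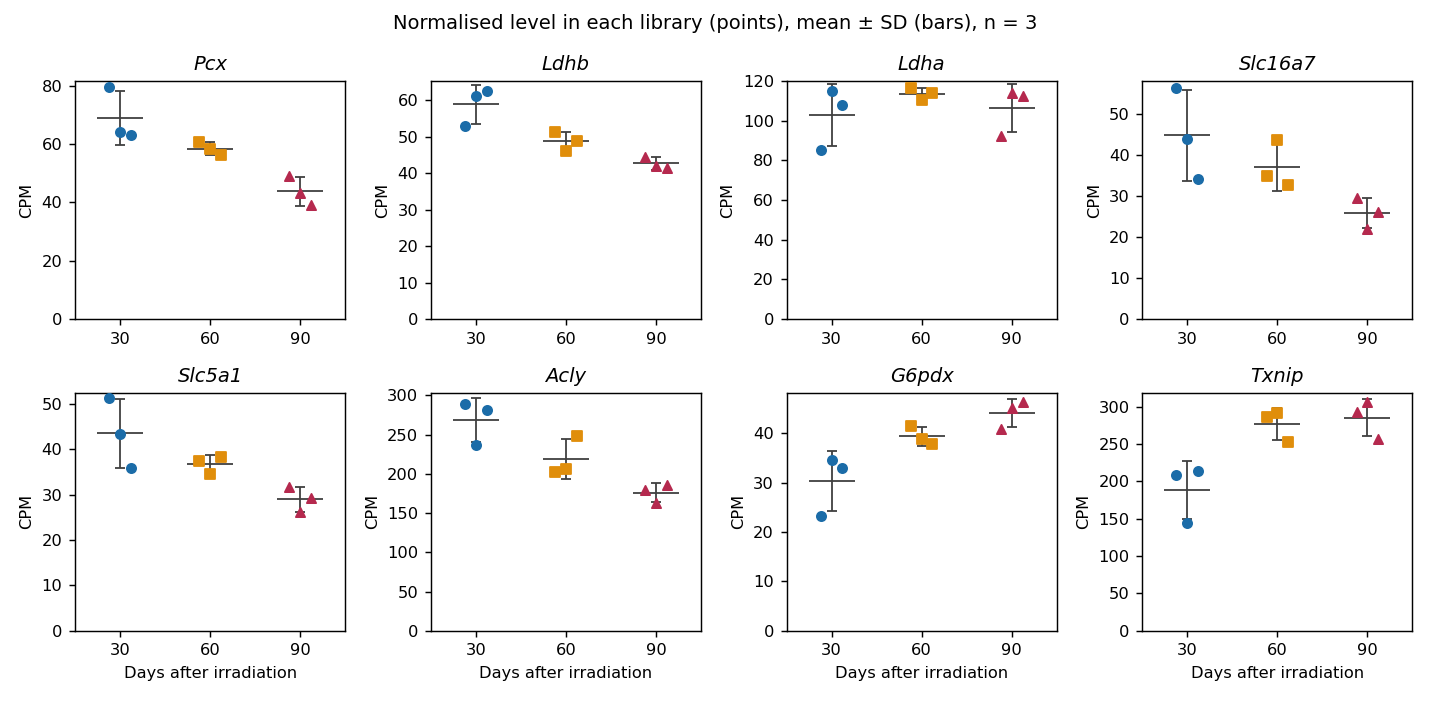
Normalised level (CPM) by days after irradiation in each library (points) with mean ± SD (bars, n = 3) for Pcx, Ldhb, Ldha and 5 other genes of sugar metabolism. Pcx runs from 79.5 down to 39.1 CPM and Ldhb from 62.6 to 41.4 with no overlap between days, while the days overlap for Ldha.

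Across the list, 0 of 45 genes were called at 60 against 30 days by edgeR, where 1.56% of all genes tested were called, and 4 had an unadjusted p under 0.05 (12.4% of all genes). At 90 against 60 days 0 were called, against 0.256% of all genes, and 7 had an unadjusted p under 0.05 (10.8% of all genes). At 90 against 30 days 2 of 45 were called, against 3.57% of all genes, and 9 had an unadjusted p under 0.05 (16.8% of all genes). DESeq2 called 0, 0 and 3. The test for any difference called 2 of 45, against 3.29% of all genes, and 7 had an unadjusted p under 0.05 (16.7%). The number called was thus close to the background in each comparison.

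At 60 against 30 days, 25 genes of the list were lower, where 50.4% of all genes were, with a median log2 fold change of -0.02. The 60-day libraries lay wholly above the 30-day libraries for 4 genes (8.65% of all genes) and wholly below for 6 (8.22%). At 90 against 60 days, 36 were lower, where 49.9% of all genes were, with a median of -0.10 beside 0.00. The 90-day libraries lay wholly above the 60-day libraries for 1 gene, Mpc1 (8.3% of all genes), and wholly below for 11 (7.64%). At 90 against 30 days, 30 were lower and 15 higher, where 47.9% of all genes were lower, with a median of -0.09 beside 0.01. The 90-day libraries lay below all 30-day libraries for 15 of the 45 genes, and above them for 2, where 11.8% and 11.4% of all genes did so. These signs depend on the scaling: with library totals alone the median of all genes rose by 0.24 from 30 to 90 days, and only 9 of 45 genes were then below 0. Relative to the median of all genes, 33 of 45 lay below it under TMM, DESeq2-type size factors and library totals, and 30 to 35 did over the alternatives run.

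**Figure D3:**
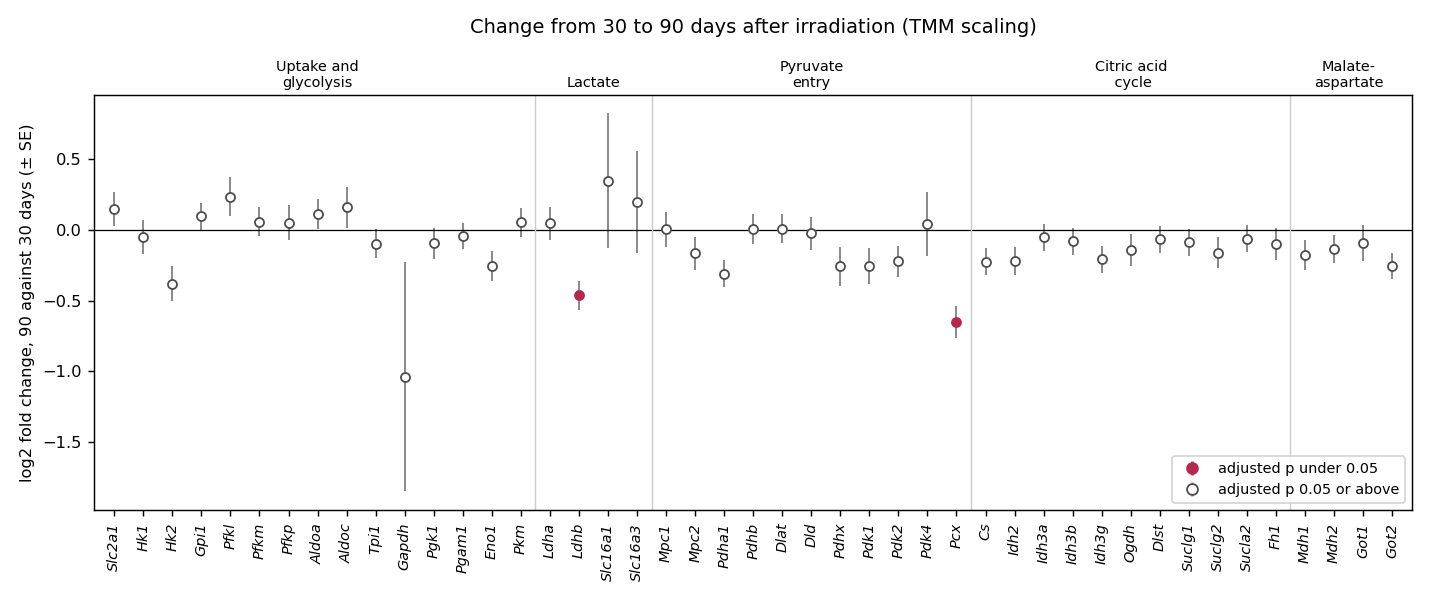
Log2 fold change from 30 to 90 days for each gene (points) with its standard error (bars), grouped by step, under TMM scaling. Filled points mark Pcx and Ldhb, the genes with an adjusted p under 0.05, and the 11 genes of the citric acid cycle all lie below 0.

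Among the 15 genes of sugar uptake and glycolysis, none was called by edgeR, and 7 were lower and 8 higher at 90 against 30 days under TMM (median 0.05). This split has no stable sign: 10 were lower without 30-day sample 1 (median -0.04), 8 without 90-day sample 1 (median -0.02), and 3 with library totals alone (median 0.27). Slc2a1, the basal glucose transporter, averaged 18.1 CPM ± 1.33 (SD, n = 3) at 30 days and 17.8 ± 1.20 at 60 days, with all 3 days overlapping. Hk1, the hexokinase of most tissues, was at 74.6, 85.7 and 92.4 CPM at 30 days, 71.4, 76.3 and 95.9 at 60 days and 78.9, 85.7 and 79.1 at 90 days. Hk2, the insulin-responsive hexokinase, was at 37.1, 28.1 and 30.6 CPM at 30 days, 30.6, 31.8 and 30.3 at 60 days and 27.7, 22.8 and 22.9 at 90 days. Its 90-day libraries lay below the others, but the log2 fold change of -0.38 (SE 0.12) had an edgeR adjusted p of 0.0942. Hk2 is named here, as are Pdha1, Eno1, Cs, Idh2 and Idh3g below, after its values were seen.

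Pfkm, the muscle-type phosphofructokinase that commits sugar to glycolysis, was at 49.8, 51.8 and 62.3 CPM at 30 days, 70.6, 67.0 and 63.5 at 60 days and 57.2, 55.5 and 57.8 at 90 days. Its 60-day libraries were the highest, and 60 against 30 days gave a log2 difference of 0.29 (SE 0.10, edgeR adjusted p 0.215). Aldoa was at 305, 312 and 332 CPM at 30 days, with a log2 fold change of 0.11 (SE 0.10, edgeR adjusted p 0.675) at 90 days. Eno1 had -0.26 (SE 0.10, edgeR adjusted p 0.207), and its 30-day libraries (264, 279 and 269 CPM) lay above its 90-day libraries (224, 217 and 238).

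The 4 genes of lactate handling differed among themselves, since Ldhb fell and the other 3 had TMM-scaled log2 fold changes of 0.05 to 0.35 at 90 against 30 days that did not pass. Slc16a1, which encodes the monocarboxylate transporter MCT1, was at 0.46 to 1.69 CPM. Against 60 days, the log2 difference at 90 days was 0.68 (SE 0.47, edgeR adjusted p 0.641), and 90-day sample 1 was the highest library. Slc16a3, which encodes MCT4, was at 0.89 to 2.07 CPM with a log2 fold change of 0.37 (SE 0.36, edgeR adjusted p 0.732) from 30 to 60 days. Both are too low here for small differences to be detectable.

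The 11 genes of mitochondrial pyruvate use are 2 carrier subunits, 5 subunits of pyruvate dehydrogenase, 3 kinases that inhibit it and Pcx. Of these, 7 were lower at 90 than at 30 days under TMM (median -0.17). With DESeq2-type size factors 10 were lower, and with library totals alone 4 (median 0.05). Under all 3 scalings 10 lay below the median of all genes, though under TMM some of these lay between 0 and that median of 0.01. This count was 7 without 90-day sample 2, 8 without 30-day sample 1 and 7 with at least 10 counts required in every library. Only Pcx was called. Pdha1, the E1 alpha subunit of pyruvate dehydrogenase, was at 140, 127 and 123 CPM at 30 days, 125, 123 and 115 at 60 days and 107, 105 and 102 at 90 days. The 90-day libraries lay below the rest, with a log2 fold change of -0.31 (SE 0.10), and its adjusted p was 0.0875 by edgeR and 0.0247 by DESeq2. Its partner subunit Pdhb had 0.00 (SE 0.11, edgeR adjusted p 0.989). Pdk2, the kinase that inactivates the complex, had -0.22 (SE 0.11, edgeR adjusted p 0.308). Pdk4, the kinase induced by fasting, was at 8.58, 6.54 and 8.88 CPM at 30 days, 12.8, 15.4 and 7.51 at 60 days and 7.18, 8.01 and 9.54 at 90 days. Only 60-day samples 1 and 2 were high. Its log2 fold changes were 0.57 (SE 0.22, edgeR adjusted p 0.287) from 30 to 60 days and -0.53 (SE 0.22, edgeR adjusted p 0.387) from 60 to 90 days, and both passed without 60-day sample 3 (adjusted p 0.0249 and 0.0476).

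All 11 genes of the citric acid cycle were lower at 90 than at 30 days under TMM (median -0.10), but none passed the edgeR test, and with library totals alone 0 of 11 were lower. Relative to the median of all genes, all 11 lay below it under both of these scalings, under DESeq2-type size factors and with totals that leave out Mucl2. Cs, citrate synthase, which starts the cycle, was at 132, 124 and 120 CPM at 30 days, 107, 109 and 118 at 60 days and 105, 105 and 112 at 90 days, with a log2 fold change of -0.23 (SE 0.10, edgeR adjusted p 0.238) at 90 against 30 days. Idh2, the NADP-dependent mitochondrial isocitrate dehydrogenase, had -0.22 (SE 0.10, edgeR adjusted p 0.271). Idh3g, a subunit of the NAD-dependent enzyme, had -0.21 (SE 0.09, edgeR adjusted p 0.27). The 90-day libraries lay below all 30-day libraries for 5 of the 11 genes, these 3 among them, where 11.8% of all genes did so.

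The 4 malate-aspartate enzymes, which move reducing power between cytosol and mitochondria, each had a TMM-scaled log2 fold change below 0 at 90 against 30 days (median -0.16), and none passed. With library totals alone 1 of the 4 was lower (median 0.06), and with totals that leave out Mucl2 3 were (median -0.05). Got2, the mitochondrial aspartate aminotransferase, was at 73.6, 74.4 and 76.0 CPM at 30 days, 70.7, 72.0 and 67.0 at 60 days and 61.3, 62.3 and 64.4 at 90 days. Its days did not overlap, and its log2 fold change of -0.25 (SE 0.09) had an edgeR adjusted p of 0.151. Mdh1 had -0.18 (SE 0.11, edgeR adjusted p 0.427).

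Isozyme use was compared as a gene's share of its step, per length. A single gene had the largest share at each of the following steps, but to unlike degrees. Aldoa had 98.1% to 98.6% of aldolase over the 9 libraries and Pdk2 79.2% to 83.7% of the 3 kinases. Hk1 had 74.2% to 84.3% of hexokinase and Pfkm 60.9% to 69.4% of phosphofructokinase. Got2 had 64.2% to 71.1% of aspartate aminotransferase and Mdh1 57.4% to 61.9% of malate dehydrogenase. Mpc2 had 68.5% to 76.0% of the pyruvate carrier, but 39.7% to 49.0% when all exons of each gene set the length, so its order with Mpc1 depends on the transcript model.

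Lactate dehydrogenase is the step of the called gene Ldhb. Ldhb made up 45.6%, 41.8% and 44.0% at 30 days, 37.4%, 36.1% and 36.7% at 60 days and 39.5%, 33.3% and 33.3% at 90 days. The 30-day libraries lay above all others, while 60 and 90 days overlapped. The means were 43.8% ± 1.9 (SD, n = 3), 36.7% ± 0.7 and 35.4% ± 3.6. With the length of all exons the mean went from 54.8% to 46.0%, so which gene is the larger depends on the length used, and the difference between days does not. The log2 ratio of Ldhb to Ldha, which needs no scaling between libraries, was -0.80 ± 0.11 (SD), -1.22 ± 0.04 and -1.31 ± 0.22 at 30, 60 and 90 days. An exact permutation test over the 280 partitions of the 9 libraries gave p = 0.0143, where the smallest p it allows is 0.00357, and an adjusted p of 0.071 over 15 ratios.

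None of the 15 isozyme ratios passed after adjustment, but a single ratio at the smallest possible p would have an adjusted p of 0.0536, so no ratio could have passed alone. Mpc2 to Mpc1 (exact permutation p = 0.00714) and Pfkl to Pfkm (exact permutation p = 0.0143) had the same adjusted p of 0.071. The log2 ratio of Mpc2 to Mpc1 was 1.47 ± 0.05 (SD), 1.62 ± 0.13 and 1.30 ± 0.08 at the 3 days, with the 60-day mean highest and 1 of the 60-day libraries inside the 30-day range. That of Pfkl, the liver-type phosphofructokinase, to Pfkm was -1.50 ± 0.10 (SD), -1.74 ± 0.15 and -1.32 ± 0.13, with the 60-day libraries lowest on average. The 90-day means of both ratios lay on the other side of the 30-day means.

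**Figure D4:**
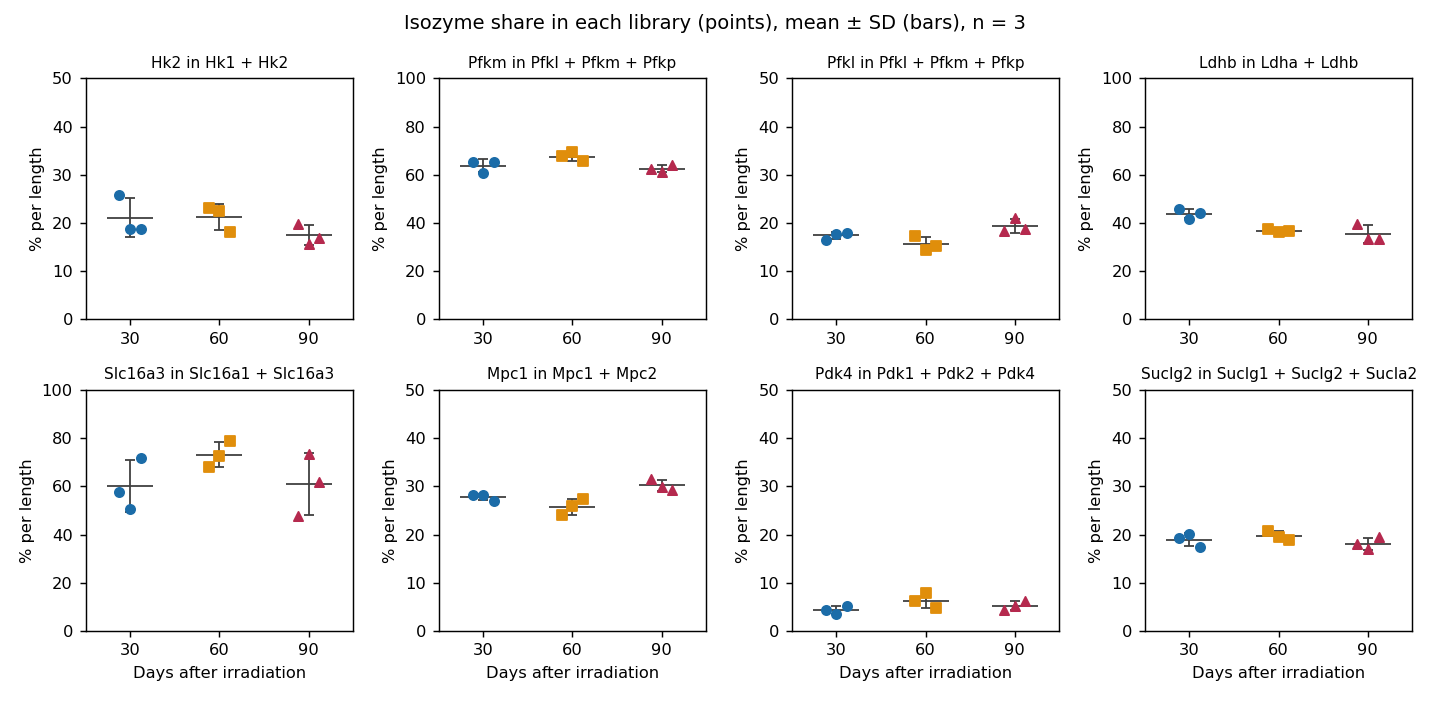
Share (%) of a gene in its step, per length of principal transcript, by days after irradiation, with 1 point per library and mean ± SD (bars, n = 3). The Ldhb share is 41.8% to 45.6% at 30 days and 33.3% to 39.5% later.

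Of 15223 other genes compared, those most like Ldhb over the 9 libraries by Pearson correlation of log2 CPM were Gtf2ird1 (0.948), Aen (0.944), Rbbp8nl (0.942), Epha8 (0.938) and Bcor (0.938). Epha8 averaged only 0.79 CPM at 30 days, 0.18 at 60 and 0.05 at 90, so its value rests on few counts. The libraries differ in depth by day, and the genes were picked as the highest of 15223 correlations over 9 libraries, so the values are a description.

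The remaining genes of the pathway come from a list of 138 further genes, of which 124 passed the filter. At 90 against 30 days 6 of them rose and 7 fell (edgeR, adjusted p under 0.05, median -0.04), where 1.81% and 1.77% of all genes did. At 60 against 30 days 3 rose (1.14% of all genes) and at 90 against 60 days 1 rose (0.092% of all genes), and 0 fell in either comparison. Around lactate and sugar uptake, Slc16a7, which encodes the pyruvate and lactate transporter MCT2, was at 56.4, 44.0 and 34.2 CPM at 30 days and 29.5, 22.1 and 26.1 at 90 days. Its groups did not overlap, and it fell by 0.79 on the log2 scale (SE 0.17, edgeR adjusted p 0.0193). Slc5a1, the sodium-glucose transporter, fell from 51.2, 43.5 and 35.9 CPM to 31.7, 26.2 and 29.3, a log2 fold change of -0.58 (SE 0.12, edgeR adjusted p 0.0122). Beside the citric acid cycle, Acly, which splits exported citrate into acetyl-CoA, fell from 289, 237 and 281 CPM to 180, 162 and 185 (-0.61, SE 0.12, edgeR adjusted p 0.0055).

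Dhtkd1, a 2-oxoadipate dehydrogenase of lysine breakdown, fell (-0.97, SE 0.21, edgeR adjusted p 0.0147), as did Gpt, alanine aminotransferase (-0.57, SE 0.14, edgeR adjusted p 0.0273). G6pdx, the entry enzyme of the pentose phosphate pathway, rose from 23.3, 34.5 and 33.0 CPM to 40.9, 45.2 and 46.3 (0.54, SE 0.13, edgeR adjusted p 0.0204). Phkg1, a glycogen phosphorylase kinase subunit, rose from a low level (2.14, SE 0.47, edgeR adjusted p 0.0145), and Me3, the mitochondrial malic enzyme, rose at 60 days (0.60, SE 0.14, edgeR adjusted p 0.0327) and at 90 days (0.51, SE 0.14, edgeR adjusted p 0.043). Among regulators at 90 against 30 days, Txnip, an inhibitor of glucose uptake, rose by 0.59 (SE 0.14, edgeR adjusted p 0.0186). Esrrg, a nuclear receptor for mitochondrial genes, rose by 0.44 (SE 0.12, edgeR adjusted p 0.041), while its coactivator Ppargc1a fell (-0.66, SE 0.16, edgeR adjusted p 0.0373). Txnip and Esrrg were already higher at 60 against 30 days, by 0.55 (edgeR adjusted p 0.0473) and 0.56 (edgeR adjusted p 0.0192).

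Of 14 hypoxia-responsive genes, Vegfa rose at 90 against 30 days (0.56, SE 0.12, edgeR adjusted p 0.0105) and Adm at 90 against 60 days (0.92, SE 0.19, edgeR adjusted p 0.0428), and no other passed. Hif1a had 0.03 (SE 0.10, edgeR adjusted p 0.93). Bsg, the chaperone of lactate transporters, had 0.00 (SE 0.12, edgeR adjusted p 0.994), and Sdha, a subunit of succinate dehydrogenase, had -0.08 (SE 0.10, edgeR adjusted p 0.761).

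Leaving out 1 library ended 12 of these 13 calls at 90 against 30 days, with Acly the exception, and all of the 3 and 1 in the other comparisons. For Slc5a1 these were 30-day sample 1 and 90-day samples 2 and 3 (edgeR adjusted p 0.052 to 0.0961), and for Slc16a7 30-day samples 1 and 2 and 90-day samples 2 and 3 (0.0596 to 0.0944). For G6pdx they were 30-day sample 1 and 90-day samples 2 and 3 (0.0911 to 0.127), for Txnip 30-day and 90-day sample 2 (0.101 to 0.11), and for Dhtkd1 30-day sample 1 and 90-day sample 2 (0.0852 to 0.0913). For Vegfa they were 30-day samples 1 and 2 and 90-day sample 3 (0.0546 to 0.0678), and for Phkg1 30-day sample 2 and 90-day sample 1 (0.0538 to 0.0706). Gpt lost its call without any 30-day library or 90-day sample 2 or 3 (0.0579 to 0.131), and Esrrg without those or 60-day sample 2 (0.0661 to 0.182). For Ppargc1a they were 30-day samples 1 and 2, 60-day sample 2 and 90-day samples 2 and 3 (0.0514 to 0.174), and for Me3 those and 90-day sample 1 (0.0643 to 0.243). At 60 against 30 days, Me3 and Esrrg lost theirs without 30-day sample 1 or 2 or 60-day sample 2 or 3 (0.0594 to 0.18 and 0.0539 to 0.101), and Txnip without any library but 60-day sample 3 (0.0503 to 0.255). For Adm they were all but 30-day sample 1 and 60-day sample 1 (0.065 to 0.267). With library totals alone, the call for Acly was lost too (-0.39, adjusted p 0.178).

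Other measures moved with the days. Beside the granular duct genes, 7 of 9 acinar markers tested were lower at 90 than at 30 days (median -0.42), where 47.9% of all genes were. Their log2 fold changes ran from -0.83 to 2.43. By edgeR 1 was called higher and 2 lower, where 1.81% and 1.77% of all genes were. Amy1 rose by 0.94, while Aqp5 had -0.57 and Chrm3 -0.53. The largest rise, 2.43, was of another acinar marker and was not called. All 9 basal and myoepithelial markers tested were higher at 90 than at 30 days (median 0.40), where 47.9% of all genes were lower. Of these markers 1, Trp63, was called by edgeR, where 1.81% of all genes were called higher. Erythrocyte markers summed to 44.0 to 84.7 CPM at 30 and 60 days and were highest in 90-day sample 2, at 229.8 CPM. Immune markers were also highest there, at 458 CPM against 172 to 325 in the other libraries. The single markers named were chosen after their values were seen. The part of these cell types in the changes of Pcx, Ldhb or any other gene was not tested.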

How the data were processed

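The table holds counts of reads per gene, which the authors deposited without normalization. Per the submitters' processing notes it was made with fastp, STAR and featureCounts on mm10. Tool versions, annotation, strand and treatment of multi-mapped reads are not given in the sources used here. Library preparation was SMARTER mRNA-seq on total RNA, per the labels' protocols. Counts of 9 libraries were used, with 16541396 to 26065856 counts each, and 3 further columns were left out because they match no sample used here.

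Of 54532 deposited Ensembl identifiers, 54409 matched a symbol, and for Aldoa, which has 2, the longer model was used. Genes were tested with edgeR 4.0.16 (TMM, filterByExpr with a minimum of 10 counts, robust quasi-likelihood F test, all 9 libraries, R 4.3.3), with Benjamini-Hochberg adjustment over all 15224 genes and a threshold of 0.05, after a check on simulated data. Isozyme ratios used a prior count of 0.5 and an exact permutation test. Alternatives used DESeq2 1.42.0, limma 3.58.1 and other scalings, filters and libraries. Lengths are of GENCODE M21 principal transcripts. They replaced the length of all exons, which had been planned, once those lengths were seen to be far longer than the principal transcript for some genes, and the all-exon result is given as an alternative.

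Genes named are those called, the most abundant isozyme of a step, the 3 largest changes per comparison and the called genes of the pathway list (at most 4 per list), plus Sdha, Bsg, Hif1a and Ppargc1a, and others are said to be chosen after their values were seen. The genes and lists were chosen with earlier results of these data known. Promoter sequences are from RefSeq. Some genes that this rule names are not reported here.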

Additional observations from a re-analysis of the deposited data

How the results depend on the processing

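No alternative gave more than 1 of the 45 genes called at 60 against 30 or at 90 against 60 days. Without a filter 1 was called at 90 against 60 days. With library totals alone 0 were called at 90 against 30 days and 0 in the test for any difference, and with totals that leave out Mucl2, chosen after seeing the data, 1 and 0. Leaving out each library in turn gave 0 to 1, 0 to 1, 1 to 2 and 0 to 3 genes for 60 against 30, 90 against 60, 90 against 30 days and any difference. It gave 0 of 15 isozyme ratios throughout, which says nothing about stability because no ratio could pass alone. The median log2 fold change of the 45 genes was 0.03, 0.06 and 0.13 with library totals alone, against -0.02, -0.10 and -0.09. Signs reversed for Gapdh without 30-day sample 2: leaving out each library gave -1.78 to 0.081 at 60 and -1.51 to 0.348 at 90 against 30 days. At 90 against 30 days the genes of the list below 0 went from 30 to 9 with library totals, and those that turned include all 11 of the citric acid cycle, Mdh1 (0.04) and Pdk2 (0.01). Signs also reversed there for Cs (0.00086), Idh2 (0.0089), Idh3g (0.0151) and Sdha (0.14, and 0.0221 with totals that leave out Mucl2). Bsg, near 0, gave -0.0041 with DESeq2-type size factors, -0.0041 with DESeq2 and -0.0469 to 0.0281 without each library, and Hif1a gave -0.0484 to 0.0771 without each library. The cause was not tested.

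No clear pairing by replicate number was seen: the correlation of same-numbered libraries was -0.06 to 0.19, and 1 of 9 was over 0.1. Of the 9 libraries, 4 correlated best with their own number. These values cannot exclude a pairing. A fit with the replicate number as a block called 0, 0, 2 and 2 of the 45 genes, and 270, 92, 717 and 609 of all genes against 238, 39, 544 and 501. For isozyme ratios the block allows only 36 arrangements, with a smallest p of 0.0278, so its count of 0 ratios says nothing about pairing.

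With 3 libraries a day, small changes in genes at about 1 CPM, such as Slc16a1, were not detectable. Counts of genes with near-identical copies are uncertain.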
